A study of Mus musculus with 6 samples.

Results

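The 10 genes described here are core genes of disease-associated microglia, the state that microglia take up around amyloid plaques, dying neurons and myelin debris. They are Trem2, Tyrobp, Cst7, Clec7a, Spp1, Gpnmb, Lgals3, Lyz2, Cd9 and Timp2, chosen by symbol, with no measured value in the rule. All 10 were found among the 16179 genes of the table, and all 10 reached the minimum mean of 10 normalised reads needed for testing. The cells were hippocampal microglia of male mice aged 10 months, of the progranulin-knockout strain B6.129S4(FVB)-Grntm1.1Far/Mmja. Each library was made from roughly 10000 live CD11b+ CD45lo cells, and hippocampi of 2 mice went into each pool. BODIPY, a dye of neutral lipids, was used to sort droplet-poor (BODIPY-low) from droplet-rich (BODIPY-high) cells, with 3 libraries in each group. Both groups carry the knockout and wild-type mice were not analysed here, so all comparisons are between fractions of knockout microglia. The labels do not say whether a BODIPY-low and a BODIPY-high library came from the same pool.

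Microglia are the resident macrophages of the brain. Trem2 is a surface receptor for lipids and lipoproteins that has no signalling tail of its own. It pairs in the membrane with the adaptor Tyrobp (DAP12), whose tyrosine motif (ITAM) recruits the kinase Syk. In mouse models of amyloid disease the later stage of the disease-associated state depends on Trem2, and genes raised in it encode secreted proteins, phagocytic receptors and lysosomal proteins.

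The libraries held 24982215 to 34899425 reads. Grn, the targeted gene, was listed at 416, 625 and 990.1 normalised reads in the BODIPY-low and 468, 657 and 1614 in the BODIPY-high libraries, and where along the gene those reads lie was not analysed here. The 10 microglia markers took 5.77% to 6.47% of reads in BODIPY-low and 5.20% to 5.52% in BODIPY-high libraries. Reads of other cells differed between the groups. Neutrophil markers, led by Ngp and Ltf, took 0.109% to 0.277% in BODIPY-low and 7.13e-04% to 0.00811% in BODIPY-high libraries, and 9 of 10 were called lower. For the monocyte markers, led by Chil3 and Hp, the shares were 0.0223% to 0.0450% and 9.23e-04% to 0.00239%, with 3 of 6 tested genes called lower. Choroid plexus and ependyma markers, led by Enpp2 and Ttr, took 0.0135% to 0.0649% and 0.533% to 0.951%, and 9 of 9 were called higher. Border macrophage markers, led by Mrc1 and F13a1, took 0.00444% to 0.00556% and 0.00641% to 0.00950%, with 1 of 9 called higher. None of the markers in these 5 lists was at 0 throughout a group. The 7 remaining lists each took at most 0.0348% of reads in any library. Among them neuron markers (9.74e-05% to 1.12e-04% against 4.73e-04% to 5.18e-04%), mural cell markers (1.12e-04% to 1.34e-04% against 6.60e-04% to 8.11e-04%) and oligodendrocyte markers (0.0162% to 0.0188% against 0.0213% to 0.0253%) were higher in all BODIPY-high libraries. Of single genes in the 7 lists, Syt1 (neuron), Vtn (mural cell) and Aldh1l1 (astrocyte) were called higher. The mural cell rise was mostly that of Vtn, from 38 reads over the BODIPY-low to 501 over the BODIPY-high libraries. Acta2 went from 22 to 105, Pdgfrb from 39 to 57 and Rgs5 from 2 to 1. In bulk samples, fewer cells of a type and less RNA per cell cannot be told apart.

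**Figure D1:**
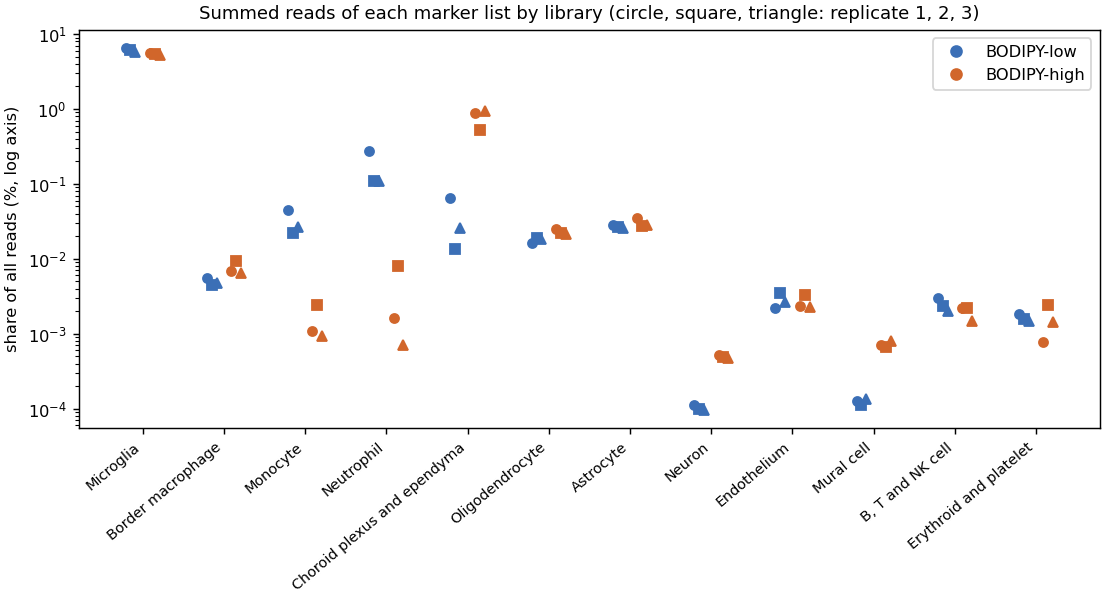
Summed reads of each marker list as a share of all reads (percent, log axis) in the 3 BODIPY-low (blue) and 3 BODIPY-high (orange) libraries, with 1 point per library. Neutrophil and monocyte points lie lower, and choroid plexus points higher, in every BODIPY-high library, and microglia points are also lower there, at 5.20% to 5.52% against 5.77% to 6.47%.

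Cst7, Lyz2 and Timp2 were higher in BODIPY-high libraries, and none of the 10 genes was called lower. The rises were small, between 0.33 and 0.69 on the log2 scale. Choroid plexus markers were also higher in these libraries, and their part in the rises of Cst7, Lyz2 and Timp2 was not tested. Trem2, Tyrobp, Clec7a, Spp1, Gpnmb, Lgals3 and Cd9 did not pass the test. Calls rest on limma's moderated test on log2(value + 1) across 12821 genes, at a Benjamini-Hochberg adjusted p below 0.05. By that rule 3 of 10 genes were higher, where 9.79% of all tested genes were called higher, and 0 of 10 were lower, where the share was 3.52%. At an unadjusted p under 0.05 limma gave 5 higher and 0 lower. At an adjusted p below 0.05 edgeR called 2 higher and 0 lower, and DESeq2 called 3 higher and 0 lower. In the lists below, counts by edgeR and DESeq2 are likewise at an adjusted p below 0.05, and unadjusted counts are those of limma. Over all 12821 tested genes edgeR called 1222 higher and 414 lower, and DESeq2 called 1461 higher and 671 lower. The share of all tested genes at an unadjusted p under 0.05 was not worked out, so the unadjusted counts have no background beside them. The median log2 fold change was 0.27 over the 10 genes and -0.01 over all tested genes. For Cst7, Lyz2 and Timp2 the groups did not overlap, an order (all BODIPY-high values on top) that 18% of tested genes showed, and for the other 7 genes they did. The count of higher genes fell to 0 when BODIPY-low replicate 2 or BODIPY-high replicate 1 was left out. It was 1 without BODIPY-high replicate 2 (Gpnmb) and 2 without BODIPY-low replicate 3 (Cst7 and Gpnmb). Without BODIPY-high replicate 3 it was 2 (Lyz2 and Timp2), and without BODIPY-low replicate 1 it was 3 (Trem2, Lyz2 and Timp2). No fit with 1 library left out kept all of Cst7, Lyz2 and Timp2. The count was also 0 when libraries were scaled to 10 pan-microglia genes.

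**Figure D2:**
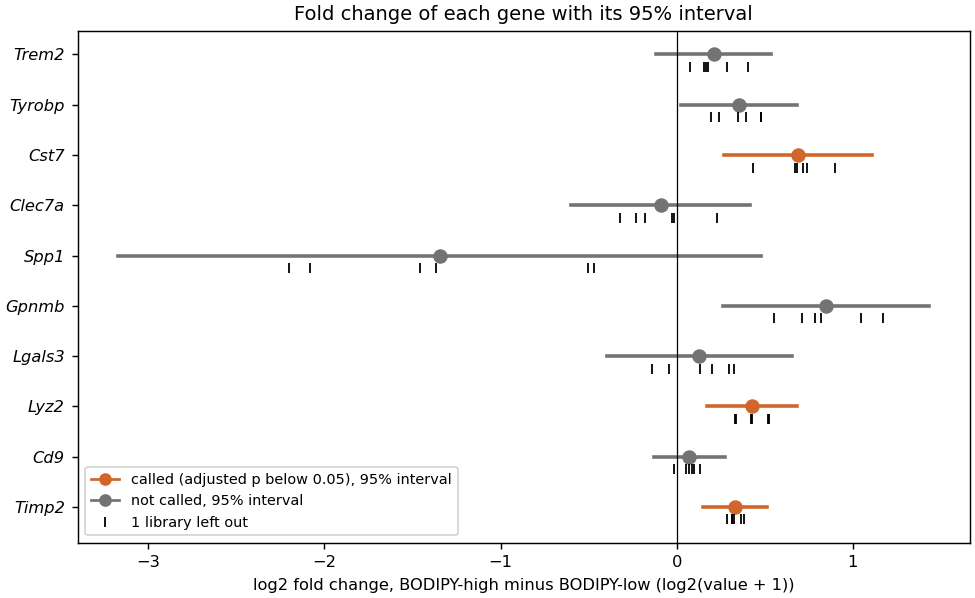
Log2 fold change of each gene, BODIPY-high minus BODIPY-low on the log2(value + 1) scale, with its unadjusted 95% interval from limma, and with black ticks for the 6 values obtained when 1 library was left out. Cst7, Lyz2 and Timp2 (orange) were called higher, and the interval of Spp1 is the widest of the 10, from -3.17 to 0.48.

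Bases around the start are shown for the 3 genes that rose (Cst7, Lyz2, Timp2), for Trem2, and for 4 genes that were highest in replicate 3 of each group (Clec7a, Spp1, Gpnmb, Lgals3). They run 5′ to 3′ on the gene's strand from 200 before to 29 after the RefSeq start base (GRCm38.p6), and capitals mark motif matches. Searched on both strands, in the full windows of 250 bases before and 50 from the start on, were CACGTG (the E-box read by MiT/TFE factors), GAGGAA (the core of PU.1 sites) and TGACTCA (AP-1); no matches overlapped. Cst7 lies at chr2:150570215-150570444 (plus strand), Lyz2 at chr10:117282243-117282472 (minus strand), Timp2 at chr11:118355382-118355611 (minus strand) and Trem2 at chr17:48346201-48346430 (plus strand). Clec7a lies at chr6:129472750-129472979 (minus strand), Spp1 at chr5:104434911-104435140 (plus strand), Gpnmb at chr6:49036318-49036547 (plus strand) and Lgals3 at chr14:47373660-47373889 (plus strand). Clec7a and Spp1 each have another RefSeq start base (129472785 and 104436192), whose window is not printed. The RefSeq start base of Lgals3 (47373860) lies inside the gene span given below, which begins at 47367751.
Cst7: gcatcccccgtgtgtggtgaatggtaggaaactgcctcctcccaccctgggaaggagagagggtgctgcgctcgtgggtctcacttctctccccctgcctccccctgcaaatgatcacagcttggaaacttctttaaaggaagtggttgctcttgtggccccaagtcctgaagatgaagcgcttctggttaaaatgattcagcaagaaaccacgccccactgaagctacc
Lyz2: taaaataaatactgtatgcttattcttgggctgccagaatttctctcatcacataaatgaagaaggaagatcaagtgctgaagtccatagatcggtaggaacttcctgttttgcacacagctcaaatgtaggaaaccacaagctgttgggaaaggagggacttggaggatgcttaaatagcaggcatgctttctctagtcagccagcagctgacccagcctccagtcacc
Timp2: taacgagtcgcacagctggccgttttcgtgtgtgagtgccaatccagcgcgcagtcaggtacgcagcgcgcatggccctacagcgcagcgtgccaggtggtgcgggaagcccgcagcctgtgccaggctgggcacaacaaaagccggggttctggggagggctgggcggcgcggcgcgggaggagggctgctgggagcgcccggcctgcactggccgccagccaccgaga
Trem2: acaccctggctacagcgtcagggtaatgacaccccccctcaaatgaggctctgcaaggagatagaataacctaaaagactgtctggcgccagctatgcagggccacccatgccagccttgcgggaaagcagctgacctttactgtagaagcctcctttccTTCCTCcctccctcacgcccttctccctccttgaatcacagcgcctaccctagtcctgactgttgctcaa
Clec7a: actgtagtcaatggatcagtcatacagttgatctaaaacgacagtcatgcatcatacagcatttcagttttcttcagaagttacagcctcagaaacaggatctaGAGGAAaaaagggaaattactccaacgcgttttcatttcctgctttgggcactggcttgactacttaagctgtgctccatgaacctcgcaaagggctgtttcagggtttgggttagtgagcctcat
Spp1: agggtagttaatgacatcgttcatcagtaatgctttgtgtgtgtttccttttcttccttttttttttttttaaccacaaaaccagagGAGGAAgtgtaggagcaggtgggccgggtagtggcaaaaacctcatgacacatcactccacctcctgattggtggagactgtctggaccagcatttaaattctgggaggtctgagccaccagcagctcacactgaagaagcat
Gpnmb: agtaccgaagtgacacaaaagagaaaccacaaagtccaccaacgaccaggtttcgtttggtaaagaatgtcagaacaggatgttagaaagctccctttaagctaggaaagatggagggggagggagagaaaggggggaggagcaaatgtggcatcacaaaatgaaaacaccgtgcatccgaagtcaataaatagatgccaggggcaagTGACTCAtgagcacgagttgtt
Lgals3: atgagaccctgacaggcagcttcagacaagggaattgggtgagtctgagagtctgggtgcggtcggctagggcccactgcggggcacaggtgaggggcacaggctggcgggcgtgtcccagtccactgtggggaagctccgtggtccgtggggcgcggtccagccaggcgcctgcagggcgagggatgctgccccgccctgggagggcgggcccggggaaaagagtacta
GAGGAA began 96 bases before the start base of Clec7a and 113 before that of Spp1, and its reverse complement TTCCTC began 40 before that of Trem2. TGACTCA began 8 bases after the start base of Gpnmb. Of 9 genes with a window in the table, Cd9 included, 3 held GAGGAA, 1 held TGACTCA, 0 held CACGTG and 5 held none. Among all 32851 windows of this length, 28.3% held GAGGAA, 5.20% held TGACTCA and 7.15% held CACGTG. A match is a description of the letters only.

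Compared per kilobase of the longest coding transcript, levels fell into an upper and a lower tier. Cd9, Tyrobp, Trem2, Lyz2 and Timp2 had mean levels of 41177, 35623, 27923, 26682 and 11170.3 normalised reads per kb in BODIPY-low libraries. Clec7a, Spp1, Cst7, Lgals3 and Gpnmb stood at 1849, 1485, 1357, 519 and 355. Neighbours in this order overlapped over the libraries, except Lyz2 and Timp2, Timp2 and Clec7a, and Cst7 and Lgals3. The same 5 genes held the upper tier in BODIPY-high libraries, from Tyrobp at 45367 to Timp2 at 14074. Below them stood Cst7 at 2119, Clec7a at 1659, Gpnmb at 613, Lgals3 at 579.9 and Spp1 at 533, and the ranges of the last 3 overlapped.

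**Figure D3:**
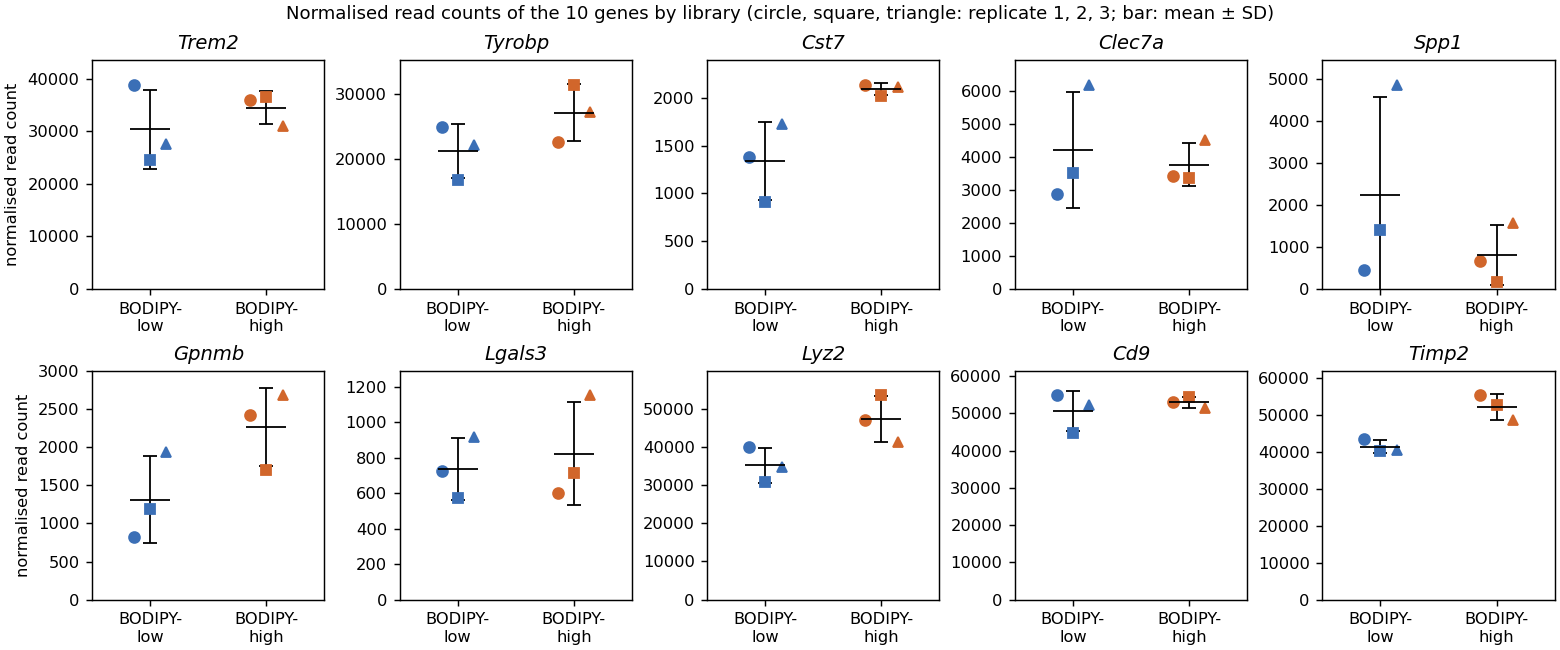
Normalised read counts (linear axis from 0) of each gene in the 3 BODIPY-low (blue) and 3 BODIPY-high (orange) libraries, with 1 point per library and the mean ± SD; for Spp1 the lower bar of the BODIPY-low group is cut at 0. The groups separate for Cst7, Lyz2 and Timp2, and BODIPY-low replicate 3 stands out for Clec7a (6208) and Spp1 (4868).

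Trem2 did not pass the test (chromosome 17, 48346401 to 48354147 on GRCm38). Normalised reads, here and below in the order of replicates 1, 2 and 3, were 38927, 24648 and 27565 for BODIPY-low and 36051, 36637 and 30995 for BODIPY-high. The highest and the lowest of the 6 values both belonged to BODIPY-low libraries. The group means were 30380.1 ± 7544 and 34561 ± 3102 (SD, n = 3 each), with a limma log2 fold change of 0.21 (95% interval -0.11 to 0.53, adjusted p = 0.402). Without BODIPY-low replicate 1, which held the highest Trem2 value, the fold change was 0.40 and passed (adjusted p = 0.0279), and without BODIPY-low replicate 2, which held the lowest, it was 0.07 (0.832). Its signalling partner Tyrobp (chromosome 7, 30413760 to 30417585) stood at 24901, 16778 and 22123 in BODIPY-low and 22655, 31443 and 27154 in BODIPY-high libraries. The highest 2 values were in BODIPY-high libraries, yet the groups overlapped through BODIPY-high replicate 1. For Tyrobp limma gave 0.36 (95% interval 0.03 to 0.68, adjusted p = 0.153), and 0.19 without BODIPY-low replicate 2 (adjusted p = 0.470). The ratio of Trem2 to Tyrobp normalised reads ran from 1.25 to 1.56 in BODIPY-low and from 1.14 to 1.59 in BODIPY-high libraries, so these ranges overlapped.

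Most partners of the pair did not pass the test. For every list here and below, the share of all tested genes that limma called at an adjusted p below 0.05 was 9.79% higher and 3.52% lower. The list of Trem2 relatives and other receptors that couple to Tyrobp held 9 tested genes, the adaptor Hcst included. Of these 0 rose (0 higher and 4 lower at an unadjusted p under 0.05, 0 and 2 by edgeR, 0 and 3 by DESeq2) and 1 fell. That gene was Trem3, a family member of mouse myeloid cells, with 168, 69.3 and 73.3 normalised reads in BODIPY-low libraries and a single read over all BODIPY-high libraries (limma adjusted p = 3.15e-04). It fell beside the neutrophil markers, whose median log2 fold change was -5.71, and their part in it was not tested. Among 18 tested genes of the ITAM chain 1 fell and 0 rose (0 higher and 2 lower at an unadjusted p under 0.05, 0 and 1 by edgeR, 0 and 2 by DESeq2), with a median of -0.07. Nfatc2, a calcium-regulated transcription factor, fell by 0.38 (SE 0.10, adjusted p = 0.0266), a call lost when BODIPY-low replicate 2, BODIPY-low replicate 3 or BODIPY-high replicate 3 was left out (adjusted p = 0.117, 0.0962 and 0.115) and with pan-microglia scaling (0.0696). Syk itself had a log2 fold change of -0.12 (adjusted p = 0.421), and the phospholipase Plcg2 downstream of it had -0.0045 (95% interval -0.18 to 0.17).

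Apoe and Clu, lipid carriers that Trem2 binds, rose, while limma did not call the other 3 of 5 tested ligands and sheddases (edgeR called 2 higher and 0 lower of the 5, DESeq2 2 higher and 1 lower). Apoe, apolipoprotein E, stood at 38878, 34942 and 45205 in BODIPY-low and 93365, 75346 and 74868 in BODIPY-high libraries (limma log2 fold change 1.03, SE 0.12, adjusted p = 2.57e-04), with no overlap. Clu, clusterin, went from 715, 266 and 456 to 9317, 7175 and 12093 (4.39, SE 0.30, adjusted p = 2.06e-05). Both moved beside the choroid plexus markers, whose median log2 fold change was 4.64, and their part in either rise was not tested. Adam10 and Adam17, proteases that shed the Trem2 ectodomain, had log2 fold changes of -0.30 (adjusted p = 0.0828) and -0.22 (adjusted p = 0.153).

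Cst7 had the largest rise among the 3 called genes. It encodes cystatin F, an inhibitor of cysteine proteases in the endolysosome (chromosome 2, 150570415 to 150578944). BODIPY-low libraries held 1385, 906 and 1724 normalised reads and BODIPY-high libraries 2137, 2016 and 2114. The BODIPY-high values lay within 1.06 times of each other, the BODIPY-low values within 1.90 times, and the groups did not overlap. Its limma log2 fold change was 0.69 (SE 0.19, adjusted p = 0.0357). Leaving out any library but BODIPY-low replicate 3 ended the call (adjusted p = 0.0535 and 0.0777 without BODIPY-low replicates 1 and 2, and 0.0752, 0.0647 and 0.107 without BODIPY-high replicates 1, 2 and 3), as did edgeR (0.0529) and pan-microglia scaling (0.0656). The fold change was 0.43 without BODIPY-low replicate 2 and 0.67 to 0.74 in the other 4 of these leave-one-out fits. Of 9 tested cystatins and proteases that cystatins inhibit, 0 were called (6 at an unadjusted p under 0.05, 1 by edgeR and 3 by DESeq2). Ctsb, cathepsin B, had 0.36 (adjusted p = 0.0537), while Ctsc, cathepsin C, a known target of cystatin F, had -0.20 (adjusted p = 0.170).

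Lyz2, the myeloid lysozyme, also rose (chromosome 10, 117277331 to 117282321). Normalised reads were 39860.1, 30798 and 34683 in BODIPY-low and 46938, 53509.9 and 41302 in BODIPY-high libraries. All BODIPY-high values were above all BODIPY-low values, the closest pair being 41302 and 39860.1. On the log2 scale the rise was 0.43 (limma, SE 0.12, adjusted p = 0.0340), a call lost without BODIPY-low replicates 2 and 3 in turn (0.133 and 0.111), without BODIPY-high replicates 1 and 2 in turn (0.0644 and 0.104) and with pan-microglia scaling (0.0800). The paralogue Lyz1 is 96.0% identical over 1262 aligned transcript bases, and how reads that fit both genes were counted was not analysed here. Lyz1 was listed at only 14.3 to 125 normalised reads. Neutrophils, monocytes and border macrophages also make lysozyme. Their marker shares, given above, were lower in BODIPY-high libraries for neutrophils and monocytes and higher for border macrophages, and their part in the rise was not tested.

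Timp2 had the smallest residual SD of the 10 genes. It encodes a secreted inhibitor of metalloproteinases (chromosome 11, 118301069 to 118355740). BODIPY-low libraries held 43514, 40342 and 40436 normalised reads and BODIPY-high libraries 55354, 52741 and 48510.1, without overlap. The log2 fold change was 0.33 (SE 0.08, limma adjusted p = 0.0222). That call was lost without BODIPY-low replicates 2 and 3 in turn (0.0880 and 0.0957), without BODIPY-high replicates 1 and 2 in turn (0.0557 and 0.0567) and with pan-microglia scaling (0.212). Among 7 other tested TIMPs, metalloproteinases and regulators, 2 rose and 2 fell. Timp3, a matrix-bound inhibitor, rose from 81.5 ± 36.6 to 1120.5 ± 413 (SD, n = 3 each, limma adjusted p = 7.80e-05) beside the choroid plexus markers, whose part in it was not tested. Bsg, or basigin, an inducer of metalloproteinases, rose by 0.67 on the log2 scale (adjusted p = 0.00221) in the same libraries, and the part of those markers was not tested for it either. Mmp14, the membrane protease to which Timp2 links pro-Mmp2, fell by 0.66 (adjusted p = 0.0132, and 0.0505 without BODIPY-low replicate 2), and Mmp2 had -0.01 (95% interval -0.27 to 0.24). Mmp9, a gelatinase stored in neutrophil granules, fell by 3.14 (adjusted p = 0.0265) beside the neutrophil markers, whose part was not tested. Its call was lost without BODIPY-low replicate 1 (0.0724), without BODIPY-high replicates 2 and 3 in turn (0.0603 and 0.102) and with robust variance (0.0540).

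Cd9, a tetraspanin that organises surface receptors, had the narrowest range of the 10 genes, 1.23 times from lowest to highest (chromosome 6, 125460266 to 125494791). Normalised reads were 54873, 44627 and 52197 in BODIPY-low and 52920.1, 54303 and 51529 in BODIPY-high libraries. Apart from BODIPY-low replicate 2, all libraries lay between 51529 and 54873. The difference was 0.07 on the log2 scale (95% interval -0.13 to 0.27, limma adjusted p = 0.675), and it turned to -0.02 without BODIPY-low replicate 2 and to -0.0036 with pan-microglia scaling. Of 13 tested tetraspanins and partners, Tspan3 rose (0.44, SE 0.08, adjusted p = 0.00554, and 0.127 with pan-microglia scaling) and the other 12 were not called by limma (edgeR called 1 higher and 0 lower of the 13, DESeq2 2 higher and 1 lower). Cd81, a close relative of Cd9, had 0.09 (adjusted p = 0.583).

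Gpnmb had the largest positive fold change of the 10 genes but did not pass. It encodes a transmembrane glycoprotein of lysosome-rich phagocytes (chromosome 6, 49036546 to 49070929). BODIPY-low libraries held 822, 1188 and 1935 normalised reads and BODIPY-high libraries 2423, 1699 and 2687. The groups overlapped where BODIPY-low replicate 3 exceeded BODIPY-high replicate 2. Limma gave 0.85 (SE 0.27, 95% interval 0.26 to 1.43, adjusted p = 0.0592). Gpnmb passed without BODIPY-low replicate 3 (1.17, adjusted p = 0.00938) and without BODIPY-high replicate 2 (1.04, adjusted p = 0.0355). Without BODIPY-low replicate 1 the value was 0.56 (adjusted p = 0.151), and the highest adjusted p was 0.198, without BODIPY-high replicate 3 (0.71). Of 4 tested genes, the MiT/TFE factors Mitf, Tfeb and Tfe3, which can drive Gpnmb, and its homologue Pmel, 0 were called (0 at an unadjusted p under 0.05, and 0 by edgeR and by DESeq2). Mitf had 0.24 (adjusted p = 0.362).

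Spp1 was the most variable of the 10 genes. It encodes osteopontin, a secreted ligand of integrins and of Cd44 (chromosome 5, 104435118 to 104441050). Normalised reads were 441, 1405 and 4868 in BODIPY-low and 662, 176 and 1572 in BODIPY-high libraries, a 27.7-fold span. The residual SD of 1.66 on the log2 scale exceeded that of 99.8% of the 9893 genes averaging 100 normalised reads or more. Its limma log2 fold change was -1.35 (95% interval -3.17 to 0.48, adjusted p = 0.335), and it lay between -2.20 and -0.47 with 1 library left out. Of 8 tested osteopontin receptor genes 3 fell and 0 rose (0 higher and 7 lower at an unadjusted p under 0.05, 0 and 3 by edgeR, 0 and 5 by DESeq2), with a median of -0.41. Cd44 went from 413 ± 114 to 163 ± 68.6 (SD, n = 3 each, log2 fold change -1.38, limma adjusted p = 0.0111, and 0.0629 without BODIPY-low replicate 3). The integrin subunit Itga9 fell by 0.52 (adjusted p = 0.00999, and 0.0547 without BODIPY-high replicate 3). Itgb3, another integrin subunit, fell by 0.58 (adjusted p = 0.0321), a call lost without BODIPY-low replicates 1, 2 and 3 in turn (0.0916, 0.0522 and 0.0895) and without BODIPY-high replicates 2 and 3 in turn (0.0776 and 0.120). Leukocytes of the blood also carry Cd44, and the part of the lower neutrophil and monocyte markers was not tested.

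Clec7a, or dectin-1, a beta-glucan receptor that signals through Syk, did not pass the test (chromosome 6, 129461591 to 129472779). BODIPY-low libraries held 2893, 3529 and 6208 normalised reads and BODIPY-high libraries 3431, 3366 and 4538. Replicate 3 was the highest library of each group, and the BODIPY-high range lay inside the BODIPY-low range. The difference was -0.09 on the log2 scale (95% interval -0.60 to 0.42, limma adjusted p = 0.844) and turned to 0.23 without BODIPY-low replicate 3. Of 8 other tested C-type lectins 1 fell and 0 rose (0 higher and 1 lower at an unadjusted p under 0.05, 0 and 0 by edgeR, 0 and 1 by DESeq2). Clec12a, an inhibitory lectin of granulocytes and monocytes, stood at 224, 111 and 132 in BODIPY-low and 3.77, 60.0 and 32.6 in BODIPY-high libraries (limma adjusted p = 0.0347). It moved beside the neutrophil and monocyte markers, whose part was not tested. Its call was lost without BODIPY-low replicates 1, 2 and 3 in turn (0.102, 0.0641 and 0.0989), without BODIPY-high replicate 3 (0.0630), with edgeR (0.0522) and with robust variance (0.0653).

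Lgals3, or galectin-3, a lectin that gathers on damaged lysosomes, had the lowest mean of the 10 (chromosome 14, 47367751 to 47386160). Normalised reads were 726, 570.1 and 915 in BODIPY-low and 600.1, 716 and 1153 in BODIPY-high libraries, and the groups overlapped. Limma gave 0.13 (95% interval -0.40 to 0.66, adjusted p = 0.782), which turned to -0.04 without BODIPY-low replicate 2 and to -0.14 without BODIPY-high replicate 3. Of 4 tested relatives 2 rose and 0 fell (3 higher and 0 lower at an unadjusted p under 0.05, 2 and 0 by edgeR and by DESeq2). Lgals1, galectin-1, went from 74.3, 51.1 and 99.3 in BODIPY-low to 191, 256 and 345 in BODIPY-high libraries (log2 fold change 1.81, SE 0.32, limma adjusted p = 0.00359), beside the choroid plexus markers, whose part was not tested. Lgals9, galectin-9, rose by 0.38 (SE 0.09, adjusted p = 0.0169), a call lost without BODIPY-low replicates 2 and 3 in turn (0.0818 and 0.0577) and with pan-microglia scaling (0.142).

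**Figure D4:**
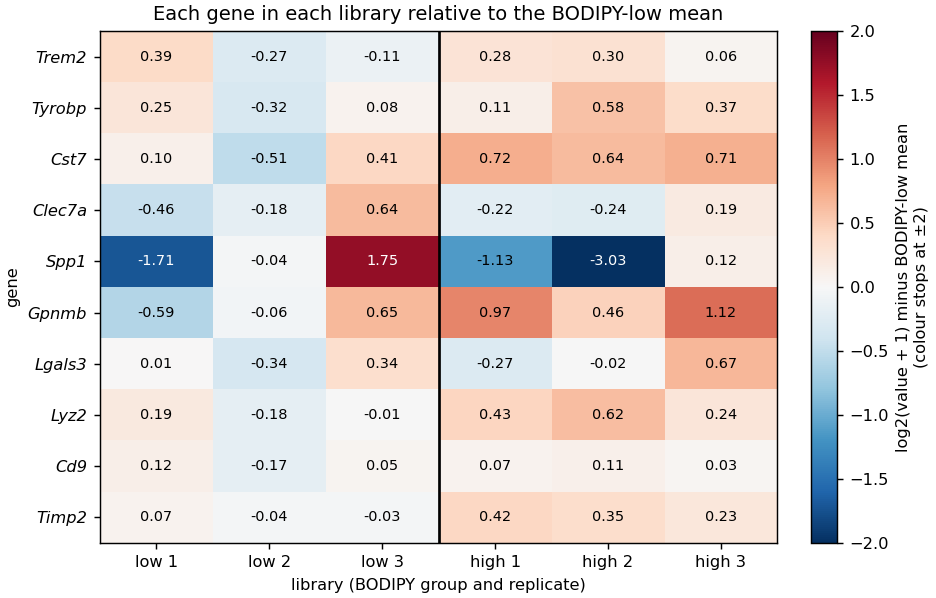
Each gene in each library as log2(value + 1) minus its BODIPY-low mean; red is higher and blue lower, and the colour stops at ±2 while the printed value does not. Cst7, Lyz2 and Timp2 are above zero in all BODIPY-high columns, and Spp1 runs from 1.75 in BODIPY-low replicate 3 to -3.03 in BODIPY-high replicate 2.

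The 10 genes did not vary as 1 unit across libraries. Clec7a, Spp1, Gpnmb and Lgals3 were highest in replicate 3 within each group, 4 of 10, where 12.2% of all tested genes were. The same held for 13 of 33 other tested genes of the disease-associated state (39.4%), among them Axl, Lpl, Itgax, Csf1, Igf1 and Ch25h. No such count was made for the other replicates, and the replicate number was not taken as a pairing. These shares are therefore a description only. BODIPY-low replicate 2 held the lowest value of 7 genes, namely Trem2, Tyrobp, Cst7, Lgals3, Lyz2, Cd9 and Timp2. The share of all tested genes with their lowest value in that library was not worked out, so this count is a description only. Across the 6 libraries, which share 2 groups, Pearson's r of log2 values was 0.91 between Lyz2 and Timp2, 0.83 between Clec7a and Spp1 and -0.75 between Lyz2 and Spp1, as a description only. The 10 genes together made up 0.596% to 0.728% of normalised reads in BODIPY-low and 0.763% to 0.836% in BODIPY-high libraries. Most of this sum was Cd9, Timp2, Lyz2, Trem2 and Tyrobp, with BODIPY-low means of 21267 to 50566 normalised reads. The remaining genes had means of 737 to 4210 there, so the sum says little about them.

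Like most tested genes, the other genes of the disease-associated state were mostly not called. Of all tested genes 13.3% were called, 9.79% higher and 3.52% lower. Of the 33 tested genes of this list, 1 rose (Apoe), 1 fell (Cybb) and 31 were not called, with a median log2 fold change of 0.11. At an unadjusted p under 0.05 limma gave 8 higher and 5 lower. At an adjusted p below 0.05 edgeR called 3 higher and 1 lower, and DESeq2 called 7 higher and 3 lower. Cybb, the catalytic subunit of the phagocyte NADPH oxidase, stood at 2629, 1628 and 1693 in BODIPY-low and 285, 569 and 635 in BODIPY-high libraries (-2.04, SE 0.28, limma adjusted p = 8.23e-04). Neutrophils also express Cybb, and the part of their lower markers was not tested. Of 19 tested homeostatic microglia genes 4 fell and 0 rose (1 higher and 10 lower at an unadjusted p under 0.05, 0 and 6 by edgeR, 1 and 6 by DESeq2), with a median of -0.21. The chemokine receptor Cx3cr1 fell by 0.39 (adjusted p = 0.0399), the lysophospholipid receptor Gpr34 by 0.41 (adjusted p = 0.00623), the purinergic receptor P2ry13 by 0.27 (adjusted p = 0.0375) and the TGF-beta receptor Tgfbr1 by 0.38 (adjusted p = 0.0297). Gpr34 passed with each library left out in turn (adjusted p up to 0.0497). Cx3cr1 and Tgfbr1 passed only without BODIPY-high replicate 1 and otherwise reached 0.173 and 0.102, and P2ry13 passed only without BODIPY-low replicate 1 and otherwise reached 0.141.

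**Figure D5:**
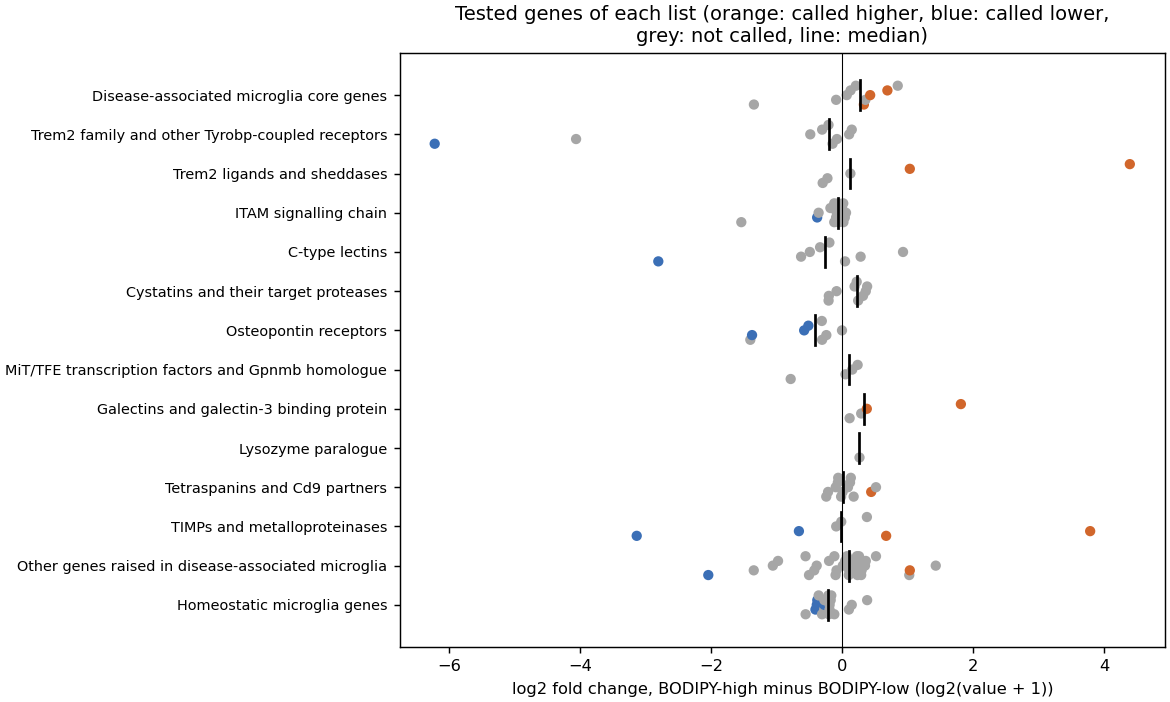
Log2 fold change of every tested gene of each list, BODIPY-high minus BODIPY-low on the log2(value + 1) scale, with 1 point per gene and a black line at the list's median; orange was called higher, blue lower and grey not called. The core genes have a median of 0.27, the osteopontin receptors one of -0.41 and the homeostatic genes one of -0.21; the point of a gene with almost no reads in a group, such as Trem3, depends on the pseudocount.

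The genes whose pattern over the 6 libraries was most like that of Trem2, Cst7 and Clec7a were found by the root mean square difference of centred log2 values, among 9538 other genes with a mean of at least 100, leaving out predicted, clone-named and date-like symbols. For Trem2 they were Ppp1r11 (0.05), C1qc (0.05) and Med10 (0.05), against a root mean square of 0.24 for Trem2 itself. C1qc encodes a chain of complement C1q, which microglia make in the brain. For Cst7 they were Rab4a (0.11), Asrgl1 (0.12) and Erlec1 (0.13), against 0.44 for Cst7 itself. For Clec7a they were Polh (0.10), B3gnt7 (0.12) and Il2rg (0.12), against 0.36 for Clec7a itself.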

How the data were processed

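Per the series' design text and the submitters' processing notes, reads were checked with FastQC 0.11.4, mapped to mm10 and counted per gene with STAR 2.5.3a, and analysed with DESeq2 at standard settings; the notes also list mm9. The authors deposited a signal: gene counts divided by 1 size factor per library. The annotation and the strand column counted were not stated, so reads of genes that overlap on opposite strands (Cd9 and Gm26728) cannot be told apart. Exons of Spp1 overlap those of Gm42793 on the same strand. Neither Gm26728 nor Gm42793 is among the listed genes.

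Dividing by each library's smallest nonzero value gave whole reads for 100% of values (tolerance 0.01), 24982215 to 34899425 per library. Shares of reads are given as the range over libraries, which includes differences between libraries. P-values reflect the spread over 3 libraries a group, part of which may be technical.

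Main test: limma 3.58.1 (R 4.3.3) with a trended prior, two-sided, on log2(value + 1), which shrinks changes of low genes, over 12821 genes with a mean of at least 10, Benjamini-Hochberg adjusted. On recovered reads edgeR 4.0.16 (quasi-likelihood) called 1222 genes higher and 414 lower; DESeq2 1.42.0 was also run. Other alternatives were pseudocounts 0.5 and 5, no filter, a mean of at least 50, TMM scaling, pan-microglia scaling, robust variance, a replicate block and each library left out. The procedure was tested on simulated data.

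Coordinates and transcript lengths come from GENCODE M21 (GRCm38). The 10 genes and all lists were chosen with earlier results of these data known. Named were all 10 genes, every called gene of a pathway list with 4 or fewer calls, the 2 most abundant genes of a marker list (for the lists of other cells described one by one; those of the microglia list are not reported here), and the 3 nearest patterns of Trem2, Cst7 and Clec7a; other genes were named after their values were seen.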

Additional observations from a re-analysis of the deposited data

How the results depend on the processing

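Of the 10 genes 3 were called higher. With 1 library left out the count was 0 to 3 and never held all of Cst7, Lyz2 and Timp2. The count was 0 with pan-microglia scaling, 2 with edgeR and 4 with the replicate block, which added Gpnmb (adjusted p = 0.00739). It was 3, with the same genes Cst7, Lyz2 and Timp2, under DESeq2, both pseudocounts, both filters, TMM scaling and robust variance. The count called lower was 0 under all 16 alternatives. Direction reversed, with no value called, for Clec7a (-0.32 to 0.23 with 1 library left out), Lgals3 (-0.14 to 0.33) and Cd9 (-0.0166 to 0.13, and -0.0036 with pan-microglia scaling); the cause was not tested. Cx3cr1 and P2ry13 also lost their calls without the filter (adjusted p = 0.0690 and 0.0697), and P2ry13 and Tgfbr1 with pan-microglia scaling (0.126 and 0.0689).

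Over all genes, 1255 higher calls became 689 to 1295 and 451 lower calls 151 to 523 with 1 library left out; lower calls were 289 with pan-microglia scaling and 760 with the replicate block. The 7 higher calls in the pathway lists were 14 with DESeq2, 15 with the replicate block and 6 to 12 with 1 library left out, and the 13 lower calls were 24, 34 and 6 to 17. Same-numbered libraries' deviations from their group means correlated at 0.11, 0.14 and 0.07 across genes, not all over 0.1, so the number was not taken as a pairing, although each library correlated best with its own number.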
